A study of Homo sapiens with 10 samples.

Results

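Collagen chain genes encode the polypeptides that fold, 3 at a time, into the collagen triple helix. They were taken here as every gene of the count table whose identifier maps to a protein-coding gene named COL, a number, A and a number. The rule found 30 genes among the 14054 of the table, out of 44 such genes in the GENCODE 29 annotation. They were grouped by the structures their proteins build, as fibrillar (9 genes), network-forming (6), FACIT (6), beaded (3), multiplexin (2), transmembrane (2), anchoring fibril (1) and other (1). The remaining 14 annotated chains, among them COL2A1 and COL11A2 of the fibrillar type and COL4A3 and COL4A4 of the network type, were not analysed here.

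RNA came from MRC5, a human fetal lung fibroblast line with no transgene or drug named in the labels. All 10 libraries were of cells given medium conditioned by A549, a line from a human lung adenocarcinoma that keeps some alveolar epithelial traits, so no library shows MRC5 cells without A549 medium. In 5 libraries (static 1, 3, 5, 7 and 9) the A549 cells had not been stretched, and in 5 (stretch 2, 4, 6, 8 and 10) they had. The labels give the exposure as 24 hours in the sample descriptions and as 6 hours in the series design. Whether the 5 libraries of a medium were grown as separate cultures is not in the labels, and a p-value here reflects only how these libraries spread, which may be technical.

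Fibrillar collagens (types I, III, V and XI and relatives) assemble into the banded fibrils that give connective tissue its tensile strength. FACIT collagens sit on the surface of those fibrils, type IV chains build the meshwork of basement membranes, and type VI chains build beaded microfilaments around cells. Fibroblasts are the main makers of fibrillar and type VI collagen in the lung, and overproduction of type I and III collagen is a hallmark of lung fibrosis.

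Total counts ran from 4231653 to 8455073 per library, and collagen chain genes held 1.16% to 1.37% of them. Levels are given in CPM, counts relative to TMM-scaled library size, where a count of 3 corresponds to 0.355 to 0.709 CPM in the unscaled library totals. The libraries were made by amplifying short targets, so CPM of different genes reflect how well each target amplified and cannot be scaled by gene length. Levels are therefore compared between media within a gene and not between genes. All 12 fibroblast markers looked for were in the table, and their summed level was 8315 to 9058 CPM under static and 5561 to 8941 CPM under stretch medium. The low value was stretch 2, where vimentin (VIM) was at 1579.7 CPM against 4057 to 5073 CPM in the other libraries. Of 18 markers of A549 and lung epithelium 8 were in the table, with sums of 36.1 to 45.7 and 38.7 to 52.6 CPM, and the surfactant genes SFTPB and SFTPC and the lung epithelial factor NKX2-1 were not among them. Endothelial markers (4 of 6 in the table) summed to 53.7 to 65.9 and 48.4 to 68.2 CPM, most of it TEK, and leukocyte markers (3 of 6) to 195 to 209.8 and 183 to 233 CPM, most of it CD68, which fibroblasts also express. The part of any of these in the collagen values was not tested. In bulk RNA a different share of expressing cells and a different amount of RNA per cell cannot be told apart.

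Collagen chain genes showed no common shift between media. Of the 30, 23 passed the filter on low counts and were tested, 11 with a log2 fold change (stretch minus static medium) above 0 and 12 below, around a median of -0.021. Over all 10968 genes tested the median was 0.00035, with 50.1% above 0. In edgeR's quasi-likelihood test with Benjamini-Hochberg adjustment over all genes, 0 of the 23 passed 0.05, against 0.0% of all genes, with adjusted p-values from 0.211 upwards. Unadjusted p-values under 0.05 were found for 2 (8.70% of the 23, against 16.4% of all genes), COL27A1 and COL1A1. Both were higher under stretch medium, as were 8.08% of all genes at that p, and 0 were lower, against 8.37% of all genes. DESeq2 called 2.84% of the 9690 genes to which it gave an adjusted p and 0 collagen chain genes. It gave none for COL14A1 and COL24A1. At so small a share, 0 calls do not set the chains apart from other genes. With DESeq2 3 chains had an unadjusted p under 0.05 and with limma-voom 2, where the share of all genes at that p is not given here. The static and stretch libraries overlapped for each of the 23, and they did not overlap for 3.72% of all genes tested (1.74% with stretch medium higher). That share is small enough that 0 of 23 does not set the chains apart from other genes. The count of 2 became 4 without static 3 (COL6A3 and COL18A1 were added). It was 3 without stretch 4 (COL18A1 was added) or static 9 (COL4A5 was added). It was 1 without static 1, static 5, static 7, stretch 2 or stretch 6 (COL27A1) or without stretch 10 (COL1A1). For these fits too the share of all genes is not given, so the counts have no background beside them.

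Judged by the spread of these libraries, most of the differences were bounded. If that spread is technical, the bounds do not cover separate cultures. For 18 of the 23 chains (78.3%) the 95% interval of the fitted difference lay within a 1.5-fold change in either direction. The share was 60.4% of all genes tested, which were not matched to the chains in level. The 5 chains with wider intervals were COL27A1, COL18A1 and COL15A1, and COL24A1 and COL14A1, whose means lay between 2.65 and 4.02 CPM. Without stretch 2, the library with low VIM, the median log2 fold change of the 23 was -0.026, COL27A1 was at 0.53 and COL1A1 at 0.18 (adjusted p = 0.364 and 0.445 in edgeR). The summed level of the 30 genes was 12174 ± 530.2 CPM under static and 12428 ± 626 CPM under stretch medium (SD, n = 5 each). COL1A1 and COL1A2 held 48.2% of the summed CPM and the 6 highest genes 84.4%, in CPM that also reflect amplification. The sum therefore mostly follows those genes. The ranges, 11484 to 12855 and 11775 to 13138 CPM, overlapped over most of their length. The difference of 253 CPM lay between 72.6 and 424 CPM with single libraries left out.

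**Figure D1:**
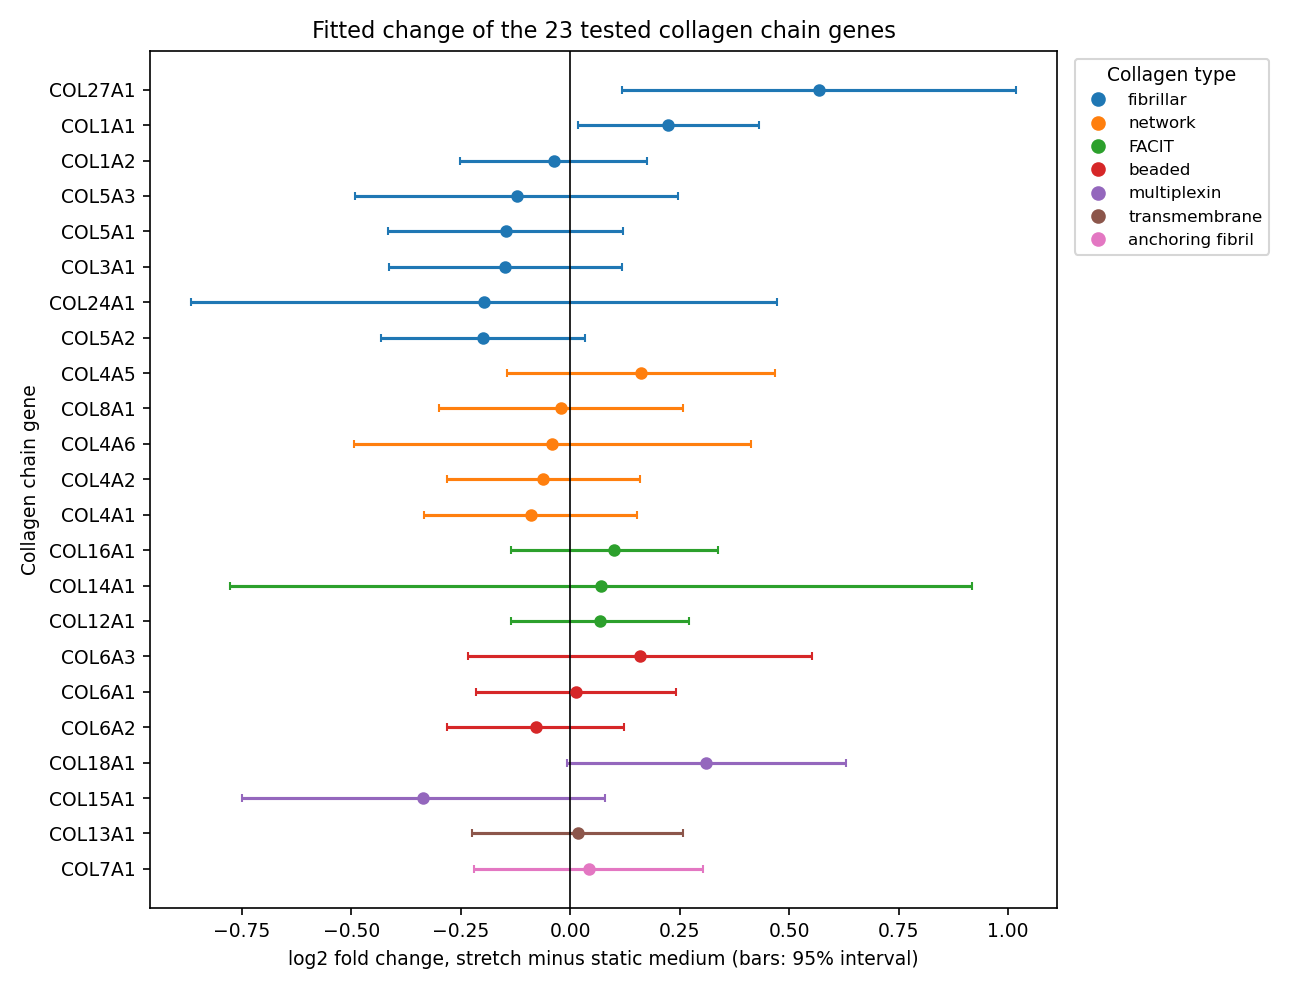
Fitted log2 fold change of the 23 tested collagen chain genes (x axis, stretch minus static medium) with 95% intervals as bars, one gene per row and coloured by collagen type. The intervals of COL27A1 and COL1A1 lie above 0 and the other 21 span it.

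The fibrillar chains did not all share a direction. Of 8 tested, 2 were above 0 (COL1A1 and COL27A1) and 6 below. The median log2 fold change was -0.13, and -0.15 to -0.071 with a library left out. COL1A1 encodes the chain that enters each type I molecule as a pair (chromosome 17, 50183289 to 50201632, GRCh38). Its level in static 1, 3, 5, 7 and 9 was 2774, 2826, 2677, 2395 and 3072 CPM, and in stretch 2, 4, 6, 8 and 10 it was 3570.1, 2876, 3533, 2900.2 and 3178 CPM. Stretch 2 and 6 were the highest, static 7 was the lowest, and static 9 was within the stretch range. The means were 2749 ± 246 and 3211 ± 333 CPM, a log2 fold change of 0.22 ± 0.098 (SE, interval 0.017 to 0.43) with an adjusted p of 0.273 in edgeR. Over the alternatives that left out a library that p ran from 0.189 to 0.480.

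COL1A2, the partner chain of type I collagen (chromosome 7, 94394561 to 94431232), had a fitted difference near 0. Static libraries were at 2809, 2747, 2604, 3542 and 3246 CPM and stretch libraries at 2866, 2854, 3225, 2664 and 2955 CPM, in the same order of libraries as above. Static 7, the lowest library for COL1A1, was the highest for COL1A2. The log2 fold change was -0.038 (interval -0.25 to 0.18), and 0.031 without static 7.

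COL3A1, the single chain of type III collagen, which forms fibrils mixed with type I in lung and vessel walls (chromosome 2, 188974320 to 189012746), was at 1014, 922, 1186, 1046 and 1457 CPM under static medium. With stretch medium it was at 1069, 982, 1193, 971 and 860.0 CPM. Static 9 was the highest and stretch 10 the lowest, and the other 8 libraries were mixed. The log2 fold change of -0.15 ± 0.13 became -0.038 without static 9.

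Type V chains initiate and limit the thickness of type I fibrils, and each of the 3 in the table was below 0. COL5A2 (chromosome 2, 189031896 to 189225312) had the smallest p among them. It was at 308, 339, 336, 409.97 and 369 CPM under static and at 342, 310.4, 337, 291 and 256 CPM under stretch medium. Static 7 was highest, stretch 10 lowest, and 3 stretch libraries lay inside the static range. The log2 fold change was -0.20 ± 0.11 (interval -0.43 to 0.034, adjusted p = 0.383 in edgeR). COL5A1 (chromosome 9, 134641774 to 134844843) was at 71.7, 53.3, 50.6, 65.9 and 49.8 CPM under static and at 55.4, 49.6, 58.3, 51.7 and 47.4 CPM under stretch medium. Static 1 and 7 stood above the rest and the other libraries were mixed, with a log2 fold change of -0.15 ± 0.13. COL5A3, a chain with a narrower tissue range, was at 13.3 ± 1.24 and 12.1 ± 2.93 CPM. Its log2 fold change of -0.12 became -0.0058 without stretch 2, the lowest library for it.

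COL27A1, a fibrillar chain best known from cartilage (chromosome 9, 114155560 to 114312511), had the largest fitted difference of the 23. Static libraries were at 25.9, 32.5, 21.5, 13.6 and 20.5 CPM and stretch libraries at 38.0, 30.6, 35.8, 22.0 and 43.4 CPM. In words, 3 stretch libraries lay above every static library, and stretch 4 and stretch 8 fell inside the static range. The means were 22.8 ± 7.02 and 34.0 ± 8.12 CPM, a log2 fold change of 0.57 ± 0.21 (interval 0.12 to 1.02), and the adjusted p was 0.211 in edgeR, 0.114 in DESeq2 and 0.110 to 0.391 in edgeR with a library left out. The last fibrillar chain tested, COL24A1, was near the floor, at 3.05 ± 1.12 and 2.65 ± 0.93 CPM, with a log2 fold change of -0.20 (interval -0.87 to 0.47).

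The 250 bases before the RefSeq start of COL27A1 (GRCh38.p14, chr9:114155287-114155536, plus strand) are shown because this gene had the largest difference. Capitals mark matches to GGGCGG, the core of a GC box, searched on both strands.
COL27A1: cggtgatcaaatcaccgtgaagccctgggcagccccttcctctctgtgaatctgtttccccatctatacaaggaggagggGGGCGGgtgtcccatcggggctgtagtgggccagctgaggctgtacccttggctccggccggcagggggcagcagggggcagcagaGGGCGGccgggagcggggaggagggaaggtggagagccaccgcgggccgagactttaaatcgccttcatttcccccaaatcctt
This stretch held 2 GGGCGG matches, as a description, and at least 1 match was present in 42.6% of the 35116 RefSeq promoter windows over the same bases. It held no match to CCAAT (in 32.01% of windows) or to TATAAA (in 10.7%), on either strand. A promoter window was found for 22 of the 30 collagen chain genes.

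**Figure D2:**
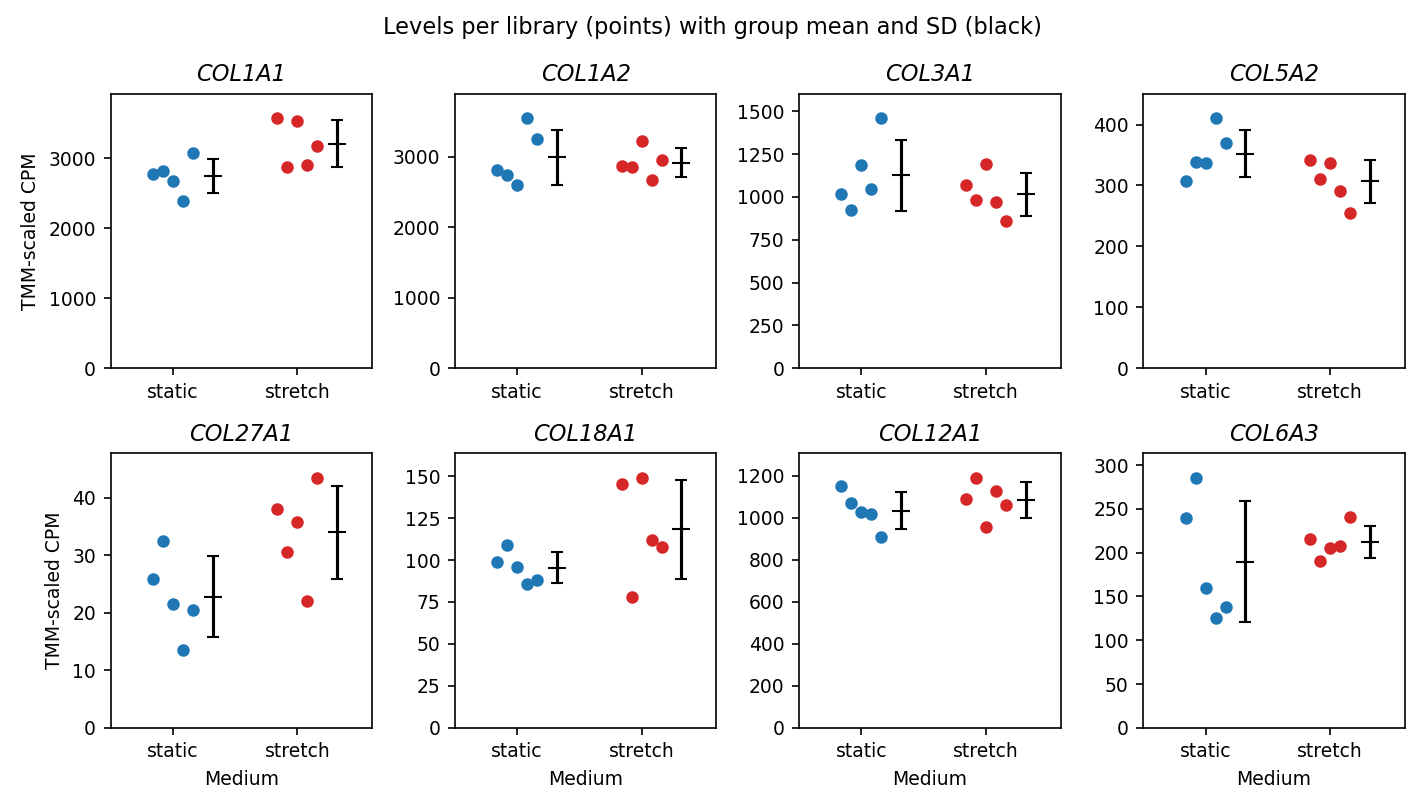
Level of 8 collagen chain genes in each library (points, TMM-scaled CPM on a linear axis from 0) by medium, with the group mean and SD in black (n = 5 each). The highest library is in the stretch group for COL1A1, COL27A1, COL18A1 and COL12A1, and in the static group for COL1A2, COL3A1, COL5A2 and COL6A3. Every panel shows groups that overlap.

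Fibril-associated chains had fitted differences close to 0. FACIT collagens carry short interrupted helices that bind fibril surfaces. COL12A1, the main one in stressed and dense connective tissue (chromosome 6, 75084326 to 75206051), was at 1151, 1069.97, 1026, 1018 and 909 CPM under static and at 1089, 1189.7, 955, 1129 and 1063 CPM under stretch medium. The groups were mixed, with a log2 fold change of 0.069 (interval -0.13 to 0.27). COL16A1, which links fibrils to cell adhesion, was at 93.0 to 130.2 CPM under static and 109.9 to 134 CPM under stretch medium, and its log2 fold change was 0.10 (interval -0.13 to 0.34). COL14A1, a fibril-spacing chain, was at 3.67 ± 0.59 CPM under static medium and spread from 0.688 CPM in stretch 6 to 7.01 CPM in stretch 2, and its log2 fold change of 0.071 became -0.33 in limma-voom.

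Beaded-filament chains had fitted differences close to 0 for COL6A1 and COL6A2 and a less precise one for COL6A3. COL6A1, COL6A2 and COL6A3 join into the type VI heterotrimer that surrounds fibroblasts. COL6A1 (chromosome 21, 45981737 to 46005050) was at 1210.1, 1267, 1105, 1274 and 1083 CPM under static and at 1397, 1086, 979.5, 1218 and 1317 CPM under stretch medium. Stretch 2 was highest and stretch 6 lowest, so both extremes were in the stretch group. COL6A2, its neighbour on the same strand 93046 bases away, was at 1136, 1122, 1074, 1301 and 1168 CPM and at 1249, 1058, 1014, 1161 and 1011 CPM. The log2 fold changes of the pair were 0.014 (interval -0.21 to 0.24) and -0.079 (interval -0.28 to 0.12).

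COL6A3, the large chain whose cleaved end is the peptide endotrophin (chromosome 2, 237324003 to 237414375), varied more than its partners under static medium. It was at 240.01, 285, 160.04, 126 and 138 CPM there and at 215, 191, 205, 208 and 241 CPM under stretch medium. Static 3 was the highest library, static 1 lay just under the highest stretch library, and static 5, 7 and 9 were lower than all stretch libraries. The SD was 69.4 CPM under static and 18.5 CPM under stretch medium. The log2 fold change of 0.16 ± 0.19 became 0.35 without static 3 and 0.041 without static 7.

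Network-forming chains had small fitted differences. Of 5 tested, 1 was above 0, with a median log2 fold change of -0.041. COL4A1 and COL4A2 form the common type IV heterotrimer of basement membranes. They are transcribed in opposite directions from RefSeq start sites 127 bases apart on chromosome 13. COL4A1 (110148963 to 110307233) was at 214, 276, 265, 245 and 296 CPM under static and at 235, 217, 283, 216 and 267 CPM under stretch medium. COL4A2 (110305812 to 110513209) was at 511, 560.2, 527, 600.3 and 550.3 CPM and at 465, 462, 629, 539.8 and 539 CPM. Stretch 6 was the highest library for COL4A2 and the second highest for COL4A1, and for neither chain did the groups separate. The log2 fold changes were -0.090 (interval -0.33 to 0.15) and -0.061 (interval -0.28 to 0.16).

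COL4A5 and COL4A6 form a second such pair on the X chromosome, with RefSeq start sites 380 bases apart, and belong to the minor type IV trimer. COL4A5 (108439844 to 108697545) was at 40.2, 38.9, 45.7, 39.9 and 60.7 CPM under static and at 59.97, 42.7, 53.4, 52.7 and 43.2 CPM under stretch medium. Of its stretch libraries 3 lay above 4 of the static ones, with static 9 the highest of all, and the log2 fold change was 0.16 ± 0.14. COL4A6 (108155607 to 108439497) was at 3.74, 4.36, 5.38, 5.61 and 7.63 CPM and at 4.98, 4.81, 6.05, 5.43 and 4.62 CPM. Static 9 was highest for this chain too, and the log2 fold change was -0.041 (interval -0.49 to 0.41). COL8A1, a short chain of vessel-wall lattices, was at 51.4 to 64.2 and 42.1 to 68.3 CPM, and its log2 fold change was -0.021 (interval -0.30 to 0.26).

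The stretches between the paired starts are shown because each lies upstream of the RefSeq starts of both chains of a trimer (GRCh38.p14). The first is the whole interval between the COL4A1 and COL4A2 starts (chr13:110307158-110307283, minus strand, read towards COL4A1). The second is the 121 bases that lie in the upstream windows of both COL4A5 and COL4A6 (chrX:108439588-108439708, plus strand, read towards COL4A5). Capitals mark CCAAT and GGGCGG on either strand.
COL4A1-COL4A2: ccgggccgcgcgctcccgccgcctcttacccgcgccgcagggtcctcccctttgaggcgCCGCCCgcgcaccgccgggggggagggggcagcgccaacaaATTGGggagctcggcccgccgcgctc
COL4A5-COL4A6: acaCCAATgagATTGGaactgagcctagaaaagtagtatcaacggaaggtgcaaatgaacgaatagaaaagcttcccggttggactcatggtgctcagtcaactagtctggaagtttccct
The COL4A1-COL4A2 stretch held 1 CCAAT match and 1 GGGCGG match, motifs found in 21.1% and 34.6% of RefSeq windows over the same bases. Its GC content was 80.2%. The COL4A5-COL4A6 stretch held 2 CCAAT matches (15.05% of windows held at least 1) and no GGGCGG match (20.8%), at a GC content of 44.6%. No chain of either pair passed the test across all genes.

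Multiplexins, whose cleaved ends include endostatin, had fitted differences of opposite sign. COL18A1 (chromosome 21, 45405137 to 45513720) was at 99.1, 109, 95.6, 85.5 and 87.8 CPM under static and at 145, 77.9, 149, 112 and 107 CPM under stretch medium. Stretch 2 and 6 were well above the static libraries, and stretch 4 was below all of them. The log2 fold change was 0.31 ± 0.15 (interval -0.0070 to 0.63, adjusted p = 0.314 in edgeR). Its exons overlap SLC19A1 on the opposite strand, and the use of strand in counting is not given in the sources used here. COL15A1 (chromosome 9, 98943179 to 99070792) lay the other way, at 19.2 ± 2.80 CPM under static and 15.04 ± 4.38 CPM under stretch medium. Stretch 2 was at 7.47 CPM and the other stretch libraries at 15.2 to 18.3 CPM, and without stretch 2 the log2 fold change of -0.34 ± 0.20 became -0.18.

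The transmembrane and anchoring chains had fitted differences close to 0. COL13A1, an adhesion-site collagen with a single membrane span (chromosome 10, 69801867 to 69964275), was at 27.7, 28.1, 27.4, 26.0 and 24.5 CPM under static and at 27.2, 26.4, 26.7, 26.5 and 28.5 CPM under stretch medium. It had a log2 fold change of 0.017 (interval -0.22 to 0.26), and its libraries spanned only 24.5 to 28.5 CPM. COL7A1, the anchoring fibril chain that ties basement membrane to stroma (chromosome 3, 48564073 to 48595267), was at 107, 135, 91.2, 114 and 118 CPM and at 101, 104, 142, 117 and 118 CPM. Stretch 6 was its highest library and static 5 its lowest, and the groups overlapped. Its log2 fold change was 0.042 (interval -0.22 to 0.30).

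The 7 chains that did not pass the filter were COL9A2, COL9A3, COL10A1, COL11A1, COL17A1, COL21A1 and COL28A1. Each had at most 12 counts in any library and was left out of the main test, so a difference between media could be missed at this depth. They include chains typical of cartilage (COL9A2, COL9A3, COL10A1 and COL11A1) and of epithelial hemidesmosomes (COL17A1). COL28A1, the sole chain outside the named types, had 0, 0, 0, 4 and 1 counts in the static libraries and 3, 1, 2, 4 and 2 counts in the stretch libraries. Without the filter, COL9A3 had a log2 fold change of -2.35 and an unadjusted p under 0.05 (adjusted p = 0.289 in edgeR), on 0 to 6 counts a library. Its exons overlap TCFL5 on the opposite strand.

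**Figure D3:**
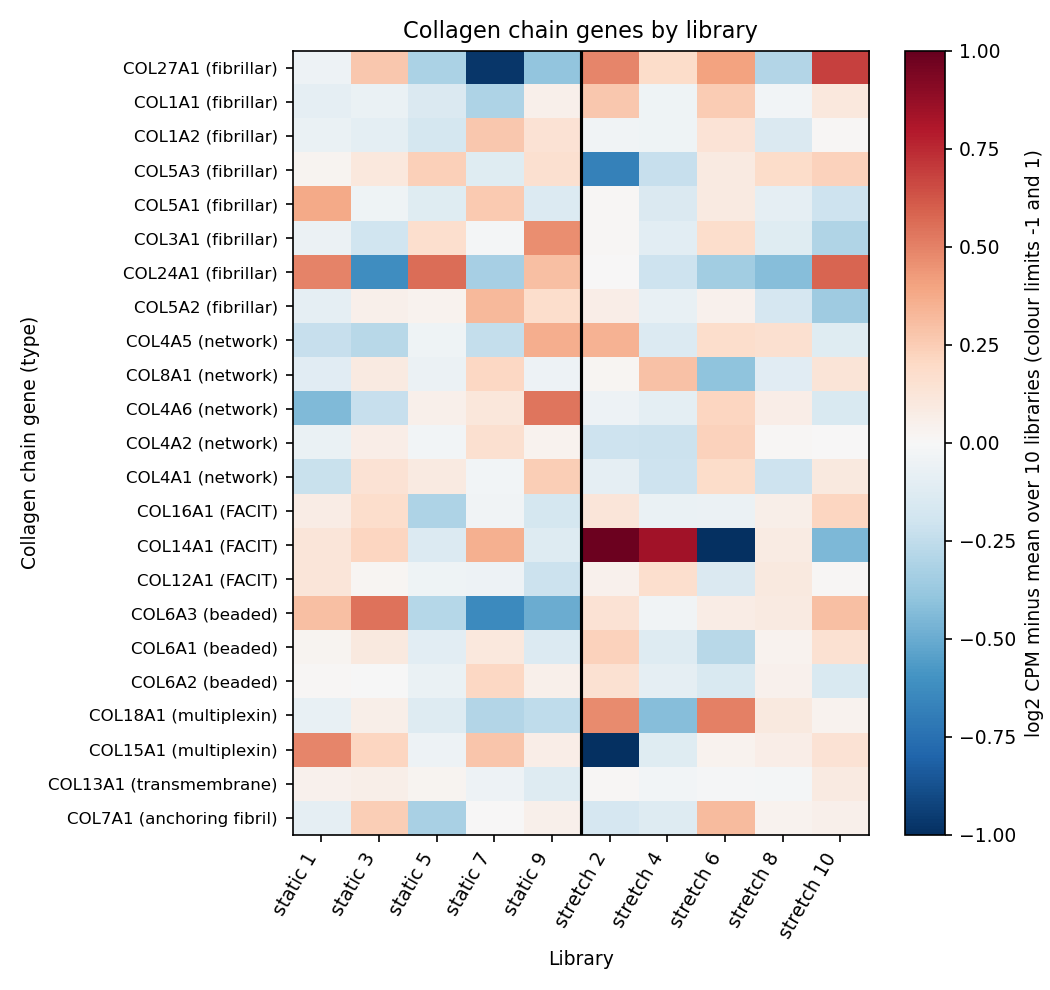
Log2 CPM of the 23 tested collagen chain genes (rows, grouped by type) minus the gene's mean over the 10 libraries (columns, static left of the line and stretch right). Colours run from -1 to 1, and COL14A1 and COL15A1 hold values past these limits drawn at the limit colour. No row is uniformly one colour on one side of the line, and stretch 4 has 4 of 23 genes above their mean where stretch 2 and stretch 10 have 16.

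Libraries also varied within a group. Stretch 4 had 4 of the 23 chains above their mean over the 10 libraries and a median centred log2 CPM of -0.099. Stretch 2 and stretch 10 each had 16 above, with medians of 0.019 and 0.054, and stretch 6 had 15 and the highest median, 0.086. The static medians ran from -0.059 (static 5) to 0.062 (static 3).

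Ratios between chains that assemble together ask whether their balance differed, and library scaling cancels out of them. For 8 ratios fixed by shared trimers or fibrils, the difference in mean log2 ratio (stretch minus static medium) was tested by exact two-sided permutation over all arrangements of the libraries. With all 10 libraries the smallest p this allows is 0.00794, or 0.0635 after adjustment over the 8 ratios for a single ratio and 0.0317 where 2 reach it together. With a library left out there are fewer arrangements and the smallest possible p is larger. Adjusted p-values from such tests therefore cannot be set against those from all 10 libraries. None of the 8 ratios passed 0.05 after adjustment. At an unadjusted p under 0.05 there were 3, each with COL1A1 as a member, so the 3 are not independent.

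The log2 ratio of COL1A1 to COL1A2 was -0.12 ± 0.26 under static and 0.14 ± 0.11 under stretch medium (SD, n = 5 each), a difference of 0.25 (two-sided exact permutation p = 0.0238, adjusted p = 0.127). By library it was -0.018, 0.041, 0.040, -0.56 and -0.079 under static and 0.32, 0.011, 0.13, 0.12 and 0.10 under stretch medium. Every stretch library but stretch 4 lay above all static ones, and static 7 stood far below the others. Without static 7 the difference was 0.14 (exact permutation test with fewer arrangements, adjusted p = 0.254).

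The log2 ratio of COL3A1 to COL1A1 differed by -0.36, with means of -1.30 ± 0.22 and -1.66 ± 0.15 (two-sided exact permutation p = 0.0317, adjusted p = 0.127). It was -1.45, -1.62, -1.17, -1.20 and -1.08 under static and -1.74, -1.55, -1.57, -1.58 and -1.89 under stretch medium. Static 3 was the only static library inside the stretch range, and with single libraries left out the difference ran from -0.44 to -0.30. The ratio of COL5A1 to COL1A1 differed by -0.36 as well (two-sided exact permutation p = 0.0476, adjusted p = 0.127), from -5.56 ± 0.33 to -5.92 ± 0.11, with a range of -0.45 to -0.26. Static 9 was the static library that lay inside the stretch range. Without stretch 2 the differences of these 3 ratios were 0.21, -0.34 and -0.34 (exact permutation tests with fewer arrangements, adjusted p = 0.254 for each).

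The other 5 ratios gave smaller contrasts against their spread. Differences were 0.062 for COL5A1 to COL5A2, -0.021 for COL4A1 to COL4A2, 0.18 for COL4A5 to COL4A6, 0.086 for COL6A1 to COL6A2 and 0.22 for COL6A3 to COL6A1 (exact permutation tests, adjusted p from 0.349 to 0.841). The SD of the log2 COL4A5 to COL4A6 ratio within groups was 0.19, below the 0.24 and 0.28 of the separate chains. COL4A6 had only 17 to 47 counts a library, and the part of counting error in these SDs was not tested. For COL4A1 to COL4A2 it was 0.16, against 0.18 and 0.14 for the separate chains. Among ratios of chains without a shared start region, some lay between their chains and others above both. Between them were COL6A1 to COL6A2 at 0.14 (0.17 and 0.12), COL6A3 to COL6A1 at 0.36 (0.37 and 0.17) and COL3A1 to COL1A1 at 0.19 (0.22 and 0.14). Above both were COL5A1 to COL5A2 at 0.22 (0.19 and 0.16), COL1A1 to COL1A2 at 0.20 (0.14 and 0.15) and COL5A1 to COL1A1 at 0.24 (0.19 and 0.14).

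**Figure D4:**
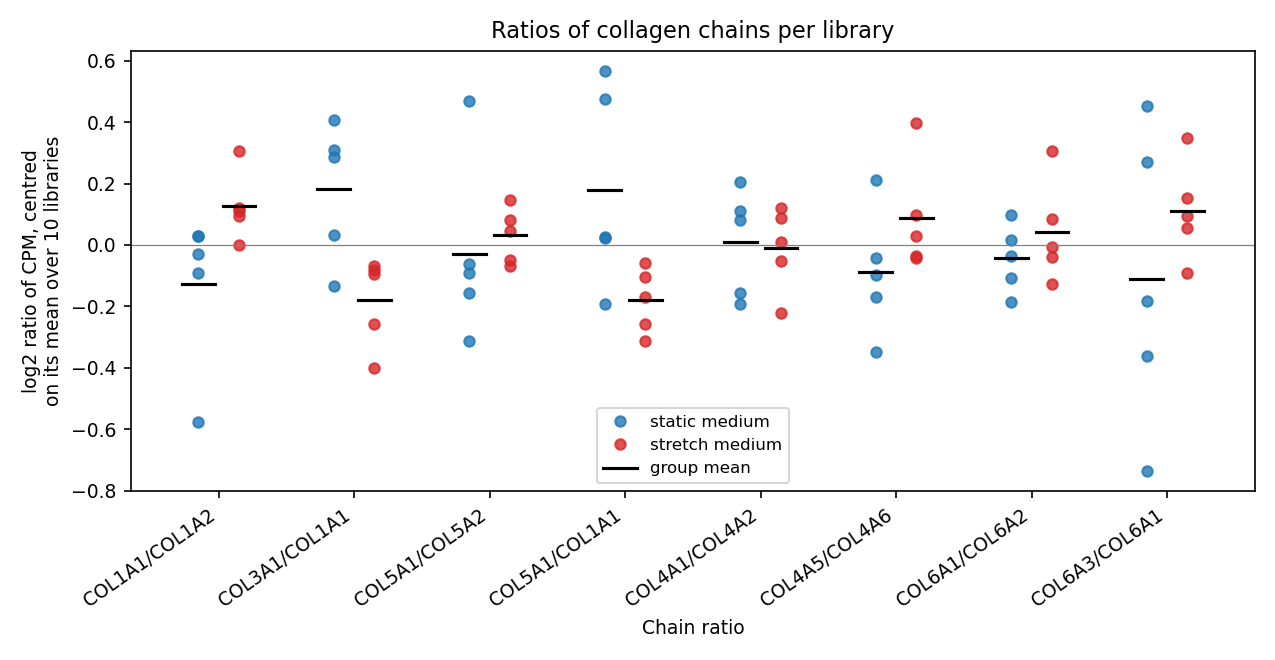
Log2 ratio of the CPM of 2 collagen chains in each library, centred on its mean over the 10 libraries (y axis), for 8 ratios (x axis), with static libraries in blue, stretch libraries in red and group means as black lines. The COL1A1 to COL1A2 points lie higher, and the COL3A1 to COL1A1 and COL5A1 to COL1A1 points lower, in the stretch group, with single libraries overlapping in each.

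Genes that modify, process and cross-link collagen mostly had log2 fold changes above 0, and none passed the test. Of 34 listed enzymes and chaperones, 32 were in the table and 29 were tested, 20 above 0 (50.1% of all genes were above 0), with a median log2 fold change of 0.074 against 0.00035 over all genes. By adjusted p 0 were called (0.0% of all genes), and 0 had an unadjusted p under 0.05 (16.4% of all genes). The smallest p-values belonged to the prolyl hydroxylase subunit gene P4HA3 (0.34 ± 0.17), the procollagen C-proteinase gene BMP1 (0.25 ± 0.13) and the ER potassium channel gene TMEM38B (-0.24 ± 0.13), each a log2 fold change with its SE.

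Of 11 listed collagen receptors, 8 were tested and 0 called (0.0% of all genes). An unadjusted p under 0.05 was reached by 3 of the 8 (37.5%, against 16.4% of all genes). ADGRG1, an adhesion receptor that binds type III collagen, was at 50.5 ± 12.4 CPM under static and 70.2 ± 7.41 CPM under stretch medium, a log2 fold change of 0.47 ± 0.15 (adjusted p = 0.155 in edgeR). ITGB1, the beta subunit of the collagen-binding integrins, was at 116 ± 20.3 and 86.2 ± 15.8 CPM, or -0.43 ± 0.14 (adjusted p = 0.167 in edgeR). MRC2, an uptake receptor for collagen fragments, was at 0.27 ± 0.11 on the log2 scale. The median log2 fold change of the 8 was 0.12, with 6 above 0.

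Of 15 listed proteins that bind collagen fibrils, 9 were tested, 8 above 0 (50.1% of all genes were), with a median log2 fold change of 0.27 and 0 called (0.0% of all genes). Fibronectin (FN1), on which new collagen fibrils are laid down, was at 1729 ± 301 CPM under static and 2130.1 ± 266 CPM under stretch medium. SPARC, a collagen chaperone of the matrix, was at 1933 ± 229.6 and 2329 ± 377 CPM. FN1 and SPARC were the 2 of the 9 (22.2%, against 16.4% of all genes) with an unadjusted p under 0.05, with adjusted p of 0.252 and 0.275 in edgeR. The small proteoglycan lumican (LUM), which regulates fibril spacing, had a log2 fold change of 0.30 ± 0.17.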

How the data were processed

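The labels' protocols state Trizol extraction of total RNA and Ion AmpliSeq Transcriptome libraries, which amplify short targets by PCR. The tools named in the submitters' processing notes are fastp 0.20.1 and Salmon 1.9, with hg38/GRCh38 as build. The sources used here give neither their roles nor the annotation or strand setting. The authors deposited unscaled whole counts for each Ensembl gene, and each gene is above 0 in at least 5 libraries. No molecular identifiers are mentioned, so floors cover counting error only. Columns were matched to samples by title number.

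Symbols came from a gene name table (13654 of 14054 identifiers) and positions and gene types from GENCODE 29. In R 4.3.3, edgeR 4.0.16 (filterByExpr, minimum count 10 and total 15, TMM, quasi-likelihood test) compared stretch with static medium over 10968 genes at 0.05, adjusted by Benjamini-Hochberg. Ratios used log2 CPM with a prior count of 2. Chi-square per degree of freedom between libraries of a group was 5.75 to 23.0, so none were merged.

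Collagen chain genes, lists, ratios and the naming rule (every chain may be named, with values in every library for chains with unadjusted p under 0.05, chains in a ratio and, only to choose what to print, the chain with the highest mean CPM of each other type, and the 3 smallest p-values of each pathway list) were chosen with earlier results of these data known. Other chains are given in less detail. Alternatives were other scalings, filters and tools (DESeq2 1.42.0, limma-voom in limma 3.58.1), a prior count of 0.5 and each library left out.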

Additional observations from a re-analysis of the deposited data

Results flagged for a closer look

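In each medium the highest and the lowest of the 5 libraries were compared with the rest for 23 genes, 7 summed levels and 8 ratios, and 3 of the 76 groups of values (3.95%) held a library set apart from the others, where chance gives about 1 in 20. COL15A1 in stretch 2 was at 7.47 CPM against 15.2 to 18.3 CPM in the other stretch libraries. The summed level of the transmembrane chains in stretch 10 was 29.1 CPM against 26.7 to 27.4 CPM. The log2 ratio of COL1A1 to COL1A2 in static 7 was -0.56 against -0.079 to 0.041 in the other static libraries.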

How the results depend on the processing

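Static libraries carry odd and stretch libraries even title numbers, and whether consecutive numbers mark a pair is not in the labels. No paired analysis was therefore run. If such pairs exist, the p-values given here ignore them. Over 16 alternatives, 0 of 363 estimates for collagen chain genes passed 0.05 after adjustment (smallest adjusted p 0.104, COL18A1 without stretch 4), and 16 of 23 chains kept their sign. The 17 reversals, in 7 chains whose main log2 fold change was at most 0.071 in size, were as follows. COL7A1 ran from -0.038 to 0.11, COL1A2 from -0.083 to 0.031, COL6A1 from -0.047 to 0.080, COL8A1 from -0.11 to 0.067, COL13A1 from -0.012 to 0.033, COL14A1 from -0.21 to 0.37 and COL4A6 from -0.13 to 0.12 with a library left out. In limma-voom COL14A1 was -0.33 and COL4A6 0.00083. The collagen median ran from -0.053 to 0.030 with a library left out. Over the whole table DESeq2 called 275 genes and limma-voom 1, and edgeR 0 to 39 with a library left out (39 without stretch 4, 2 without stretch 6, 1 without stretch 10). Collagen chains with an unadjusted p under 0.05 ran from 1 to 4, without the share of all genes beside them. The COL4A1 to COL4A2 ratio difference ran from -0.071 to 0.032 and that of COL5A1 to COL5A2 from -0.0083 to 0.19. The pathway lists had 0 called genes in each of these alternatives. Depth limits the 7 chains with at most 12 counts.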
